A study of Drosophila melanogaster with 3 samples.

Results

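The 10 genes described here encode the core proteins that divide *Drosophila* neuroblasts unequally: *brat*, *numb*, *pros*, *mira*, *pon*, *insc*, *aPKC*, *baz*, *par-6* and *l(2)gl*. They were chosen by name, all 10 were found by their symbols in the Ensembl annotation (release 115), and they stand among 13945 protein-coding genes of the main chromosome arms. Sites bound by the tagged factor were mapped by ChIP-seq (sequencing of immunoprecipitated chromatin) in whole embryos of strain 16T-GFP, both sexes pooled, collected between 0 and 24 hours of age, in 3 biological replicates. The line stably expresses Empty spiracles (Ems) with green fluorescent protein at its C terminus, and the chromatin was precipitated with anti-GFP according to the description, while the antibody entry of the labels reads ems. The 3 samples form 1 group, and the control library was not analysed here, so no group is compared with another. Each replicate had its own peak list of 30000 peaks and background regions. An optimal list of 3866 reproducible peaks had been derived by the submitters from all 3 replicates. Read depth is unknown, because peak lists carry no read counts.

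A neuroblast is a neural stem cell that divides into another neuroblast and a smaller ganglion mother cell. Before mitosis the Par complex of Bazooka, Par-6 and atypical protein kinase C gathers at the apical cortex, and Inscuteable links it to the machinery that orients the spindle. Lethal (2) giant larvae restrains the kinase elsewhere on the cortex. The adaptors Miranda and Partner of numb then carry the fate determinants Prospero, Brat and Numb to the basal side, so that the ganglion mother cell inherits them. Ems is a homeodomain transcription factor that is active in, among other tissues, neuroblasts of the embryonic brain. Whole embryos mix neuroblasts with all other cells and all stages of embryogenesis, so a peak does not show in which cells or at which stage it arose.

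Of these genes, 5 carried a peak near a transcription start site (TSS). A summit of the optimal list lay within 1 kb of an annotated TSS at 5 of the 10 genes (50%), namely *brat*, *numb*, *pros*, *aPKC* and *par-6*, against 22.2% of all protein-coding genes. Within the gene body and 2 kb to each side, 7 of the 10 (70%) had a summit, the other 2 being *baz* and *insc*, against 33.7% of all genes. *mira*, *pon* and *l(2)gl* had none. When the peak near the TSS also had to be matched in all 3 replicates, 4 of the 10 remained, without *pros*, against 15.1% of all genes. A peak counts as matched when it shares at least 1 bp with one of the 3866 peaks of highest signal in that replicate. These are counts over a short list of known genes that was chosen with earlier results of these data known, so they are set beside the background as a description and not tested.

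Gene length and TSS number differed between these genes and the rest, and both went with the share of genes that had a peak. Of the 10, 7 belonged to the longest of 5 equal groups of protein-coding genes by length (6458 bp and longer). In that group 32.3% of all genes had a summit within 1 kb of a TSS and 51.1% in the body with its flanks, and the counts for the 7 were 4 and 6. The shorter genes were *par-6* (3745 bp) and *mira* (3322 bp) in the next group, where 29.9% had a summit near a TSS, and *pon* (2795 bp) in the middle one, where 21.0% did. All 3 genes with 3 or more TSSs, *brat*, *pros* and *aPKC*, had a peak near one, against 48.2% of all such genes. With 2 TSSs, 1 of 3 genes did (*numb*), against 31.5%. With a single TSS, 1 of 4 did (*par-6*), against 17%. How far length and TSS number account for the counts was not tested.

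**Figure D1:**
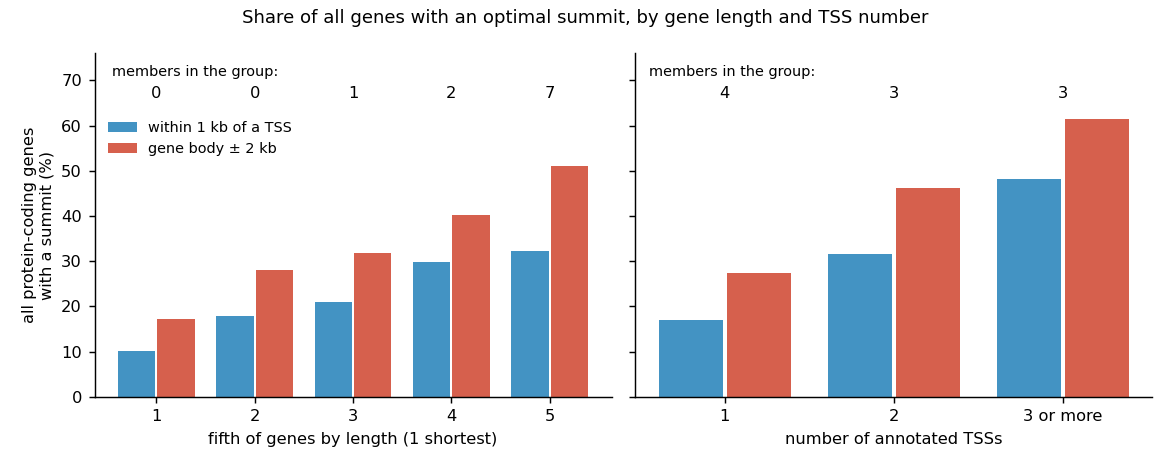
Percentage of all 13945 protein-coding genes with an optimal summit within 1 kb of a TSS (blue) or in the gene body with 2 kb to each side (red), by gene length in 5 equal groups (left) and by number of annotated TSSs (right); numbers above the bars count the asymmetric division genes in each group. The share within 1 kb is 10.1% in the shortest group and 32.3% in the longest, which holds 7 of the 10 genes.

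In all, 15 optimal summits lay in the 10 gene bodies with their flanks: 6 at *brat*, 3 at *aPKC*, 2 at *baz* and 1 each at *numb*, *pros*, *insc* and *par-6*. Joining overlapping peaks left 13 separate regions. Of the 15 summits, 6 were within 1 kb of a TSS of the gene and 9 lay farther away. By the submitters' own signal value, used here solely for ranks inside each list, the summits ranked from 196 to 3774 of 3866 with a median of 1659, and 8 of the 15 were above the midpoint of the list. All 3 replicates matched 10 of the 15 (66.7%), compared with 64.6% of all optimal peaks. These 10 rested on 8 separate peaks in each replicate, because neighbouring summits at *brat* and at *baz* overlapped the same replicate peak.

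**Figure D2:**
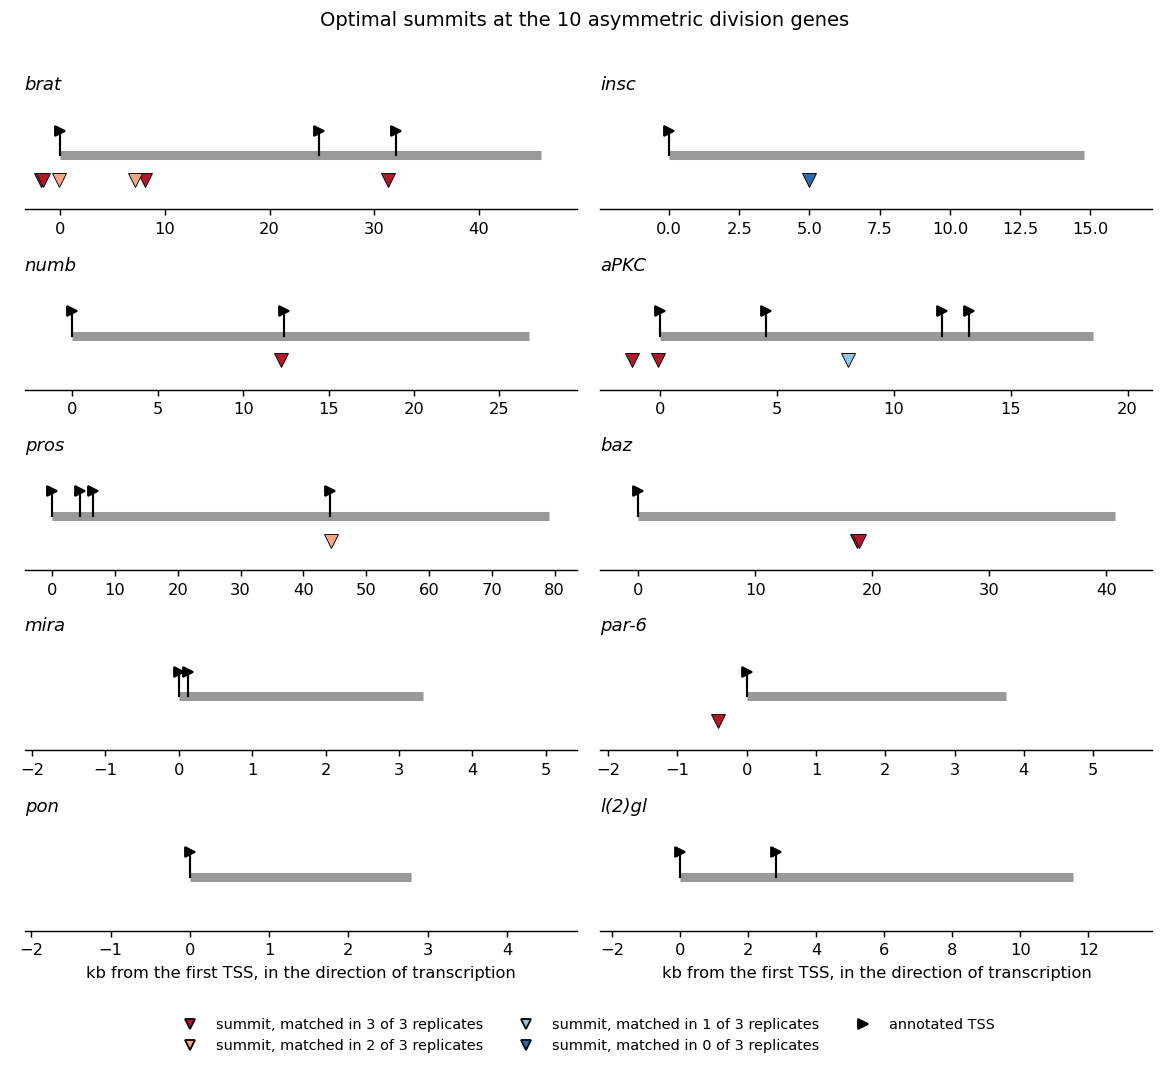
Maps of the 10 genes to scale, each with its own axis in kb from its first TSS in the direction of transcription; grey bars are gene bodies, flags are annotated TSSs and triangles are optimal summits coloured by the number of replicates that matched them. Of the 21 TSSs drawn, 6 have a summit within 1 kb, and *mira*, *pon* and *l(2)gl* have no summit.

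The 10 genes have 21 annotated TSSs, of which 6 (28.6%) had an optimal summit within 1 kb, near the share over all protein-coding genes, 4284 of 19607 TSSs (21.8%). The first TSS, the one farthest 5′, had a peak at *brat*, *aPKC* and *par-6*. At *numb* and *pros* the peak was at the last TSS and the first had none. Of the 1355 protein-coding genes that have several TSSs and a peak near one, 243 (17.9%) had it near any later TSS and not the first, while 863 (63.7%) had a peak near both the first and a later TSS.

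Among the fate determinants, *brat* encodes a translational repressor of the TRIM-NHL family and keeps the ganglion mother cell from reverting to a stem cell. The gene (FBgn0010300) lies on the forward strand of 2L from 19133816 to 19179758 in dm6 and has 3 TSSs, which are 24724 and 32051 bp apart from the first. Its strongest peak, from 19165077 to 19165287, had its summit 698 bp upstream of the third TSS, that of the transcript brat-RF, in an intron of the longer transcripts. This peak ranked 196 in the optimal list, the highest of the 15, and 151, 232 and 257 in replicates 1, 2 and 3. It was thus among the leading peaks of every replicate.

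At the first TSS of *brat*, which serves brat-RA and brat-RE, the summit lay 76 bp upstream and was weak, with rank 3774. The overlapping replicate peaks ranked 3519, 6140 and 2926, so replicate 2 did not hold it among its 3866 highest peaks. The second TSS (brat-RB and brat-RC) had no optimal summit in reach. There the joint list of all replicates held a region with −log10 q of 2.15 and its summit 835 bp downstream of the TSS. The regions of replicates 1, 2 and 3 had 0.342, 2.56 and 2.43, with that of replicate 2 at rank 3448. Their summits lay apart, upstream of the TSS in replicate 1 and 93 and 985 bp downstream in replicates 2 and 3. The values of the replicates therefore do not describe 1 shared region. In introns, 2 further summits lay 7194 and 8107 bp downstream of the first TSS, and 5777 and 6690 bp from the TSS of *Polr1D*. The nearer ranked 2752, with 2099, 3118 and 4154 in the replicates, and the farther ranked 1397, with 1317, 1300 and 2127. The farther one had its summit at the same base in the optimal list and in each of the 3 replicates.

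Upstream of *brat*, 2 overlapping peaks with summits 207 bp apart (ranks 1967 and 2967) lay 1825 and 1618 bp from its first TSS. They were nearer to other genes: the first was 37 bp from the TSS of *AsnRS*, which encodes an asparaginyl-tRNA synthetase, and the second 125 bp from that of the dynactin subunit gene *DCTN6-p27*. Both were matched by the same peak in each replicate, with ranks 1732, 1902 and 2333. The summit at the first TSS of *brat* was likewise 257 bp from the TSS of *Polr1D*, an RNA polymerase subunit gene on the opposite strand. With 6 summits in all, *brat* was among the 37 protein-coding genes (0.265%) with at least that many; the share was 1.29% in the longest length group. The 2 upstream summits are part of that count.

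*numb* encodes a membrane-associated inhibitor of Notch signalling. The gene (FBgn0002973; 2L, 9437469 to 9464184, forward strand) has 2 TSSs 12361 bp apart, and its only peak, from 9449581 to 9449709, had its summit 139 bp upstream of the second, which serves numb-RA and numb-RD. The peak ranked 478, and 326, 340 and 795 in the replicates. All 3 replicates thus ranked it high, replicate 3 lower than the others. Near the first TSS, that of numb-RB, the regions of the replicates had −log10 q of only 1.09, 1.30 and 1.29, short of the value of 2 that corresponds to q = 0.01.

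*pros* encodes a homeodomain transcription factor that enters the nucleus of the ganglion mother cell and ends its self-renewal. It is the longest of the 10 genes (FBgn0004595; 3R, 11328480 to 11407627, forward strand, 79148 bp) and has 4 TSSs. Only the fourth, 44308 bp from the first and serving pros-RJ, pros-RK and pros-RL, had a peak, from 11372717 to 11373120. Its summit was 131 bp downstream of that TSS, in sequence that is 5′ UTR in some transcripts and coding exon in others. It was the only one of the 6 summits within 1 kb of a TSS that lay downstream. The peak was weak, with rank 3235, and 2746, 6109 and 2388 in the replicates. In replicate 2 the best region of *pros* was instead 20218 bp downstream of the nearest TSS, in the 3′ UTR, with rank 3655. No list held any region within 1 kb of the first 3 TSSs, the background entries included.

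The reference sequence within 100 bp of the summit is shown for each determinant TSS that had a peak. It is given 5′ to 3′ on the forward strand, which is the coding strand of all 3 genes, from the RefSeq Release 6 genome. Capitals mark the 6-mers searched for on both strands: TAATTA and TAATGA, homeodomain cores; CGATAG and TATCGA, parts of the DNA replication-related element, to which DREF binds, which overlap in TATCGATAG; and ACACTG, which shares bases with the core promoter element called motif 1. The windows are chr2L:19165069-19165269 for the strongest *brat* summit, chr2L:19133640-19133840 for that at its first TSS, chr2L:9449591-9449791 for *numb* and chr3R:11372819-11373019 for *pros*.
brat, TSS 3: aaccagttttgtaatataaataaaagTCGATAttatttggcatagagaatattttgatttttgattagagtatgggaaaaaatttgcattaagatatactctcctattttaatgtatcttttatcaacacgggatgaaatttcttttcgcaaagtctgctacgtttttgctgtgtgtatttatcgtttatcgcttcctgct
brat, TSS 1: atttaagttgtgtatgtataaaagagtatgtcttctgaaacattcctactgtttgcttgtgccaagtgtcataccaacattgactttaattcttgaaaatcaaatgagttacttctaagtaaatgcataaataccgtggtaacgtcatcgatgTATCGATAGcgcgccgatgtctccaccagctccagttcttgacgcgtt
numb, TSS 2: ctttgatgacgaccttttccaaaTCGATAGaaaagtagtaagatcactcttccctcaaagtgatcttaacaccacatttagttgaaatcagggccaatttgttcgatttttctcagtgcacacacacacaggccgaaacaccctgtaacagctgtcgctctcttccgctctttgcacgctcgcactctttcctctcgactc
pros, TSS 4: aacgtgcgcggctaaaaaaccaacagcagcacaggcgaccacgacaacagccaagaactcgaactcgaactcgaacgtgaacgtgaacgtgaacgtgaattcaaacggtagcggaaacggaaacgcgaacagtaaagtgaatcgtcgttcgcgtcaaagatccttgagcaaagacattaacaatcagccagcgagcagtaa

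The joined element TATCGATAG stands to the right of the centre in the window of the weak summit at the first *brat* TSS, and TCGATAG, which joins CGATAG to the reverse complement of TATCGA, to the left of the centre in that of the stronger *numb* summit. The strongest *brat* window holds 1 TATCGA, read on the reverse strand as TCGATA, and neither homeodomain core, and the *pros* window, with a repeated GAACGT, holds none of the 6-mers. Over all 15 summits, TAATTA was in 1 window, upstream of *aPKC*, and TAATGA in 2, both at *brat*, against 15.1% and 12.7% of all 3866 optimal summit windows and 9.39% and 8.50% of windows centred on the TSSs of protein-coding genes. TATCGA was in 4 windows and CGATAG in 3, against 17.3% and 13.3% of optimal windows and 20.2% and 14.4% of those TSS windows, which have the same length. By distance, 9 of the 15 summits were within 1 kb of a protein-coding TSS of any gene, and these 9 held all 4 TATCGA and all 3 CGATAG windows. Among all optimal windows TATCGA was in 22.8% of those within 1 kb and 7.68% of those beyond, and CGATAG in 18.7% and 4.05%. ACACTG was in 3, against 20.7% of optimal windows and 14.2% of TSS windows. The GC content of the 15 windows ranged from 26.9% to 53.7% with a median of 36.3%, and the median of all optimal windows was 36.8%. These are matches of letters in short windows, and no test was made on them.

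The adaptors of the determinants had no peak. *mira* encodes the coiled-coil protein that tethers Prospero and Brat to the basal cortex (FBgn0021776; 3R, 19931799 to 19935120, reverse strand, 2 TSSs 122 bp apart). The nearest optimal summit was 22731 bp from the gene, 1525 bp from the TSS of *RhoGAP92B*. The highest region within the gene and its flanks ranked 18454 of 30000 in the joint list, and 27759, 18539 and 10204 in the replicates, with −log10 q of 0.119, 0.174 and 0.577. *pon*, whose product binds Numb and helps to localise it, likewise had none (FBgn0025739; X, 4636318 to 4639112, forward strand, 1 TSS). Its best region ranked 15426 in the joint list and 11924, 22886 and 16692 in the replicates, with −log10 q of 0.476, 0.106 and 0.238. The nearest optimal summit was 19372 bp away. None of the regions at *mira* and *pon* reached a −log10 q of 2 in any list.

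In the Par complex, *baz* and *par-6* had peaks in the upper part of the optimal list. *baz* encodes Bazooka, the PDZ-domain scaffold that seeds the apical complex (FBgn0000163; X, 17160006 to 17200728, forward strand). All 4 of its transcripts start at 1 TSS, which had no optimal summit within 1 kb; the replicates' regions there had −log10 q of 0.921, 0.447 and 0.810. Instead 2 overlapping peaks with summits 201 bp apart lay 18664 and 18865 bp downstream, in sequence that is 5′ UTR in some transcripts and intron in others. No TSS of any other protein-coding gene was nearer. The first, from 17178596 to 17178758, ranked 316 and the second, from 17178669 to 17179072, ranked 1659. The same replicate peak matched both, with ranks 398, 263 and 324, and its summit lay 3, 8 and 14 bp from the first of the 2. *par-6* encodes the adaptor that couples Cdc42 to the kinase (FBgn0026192; X, 17703352 to 17707096, forward strand, 1 TSS). Its peak, from 17702730 to 17703133, ranked 443, and 515, 476 and 468 in the replicates. It had close to the same rank in all 3. The summit was 420 bp upstream of the *par-6* TSS but 92 bp from the TSS of *CG8188* on the opposite strand, and inside that gene. The peak can therefore not be assigned to *par-6* rather than to its neighbour.

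The windows of both leading summits are chrX:17178570-17178770 at *baz*, with the lowest GC content of the 15 (26.9%), and chrX:17702832-17703032 at *par-6*, with the median one (36.3%). They are shown on the forward strand, which is the coding strand of both genes, with the same 6-mers in capitals.
baz, summit 1: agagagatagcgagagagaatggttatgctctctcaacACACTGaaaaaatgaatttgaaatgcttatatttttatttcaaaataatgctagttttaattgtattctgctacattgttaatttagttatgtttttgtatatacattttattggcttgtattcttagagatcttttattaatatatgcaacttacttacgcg
par-6, summit 1: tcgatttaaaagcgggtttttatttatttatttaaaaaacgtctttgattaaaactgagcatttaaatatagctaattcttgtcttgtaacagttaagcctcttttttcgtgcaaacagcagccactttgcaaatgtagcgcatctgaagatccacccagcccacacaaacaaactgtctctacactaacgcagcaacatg

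The *baz* window holds 1 ACACTG beside GA repeats, and the window of the second *baz* summit, with 53.7% GC, none of the 6-mers. The *par-6* window holds none either.

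The third member of the Par complex, *aPKC*, encodes the kinase that phosphorylates Miranda, Numb and Lethal (2) giant larvae and so drives them off the apical cortex. The gene (FBgn0261854; 2R, 14944458 to 14962969, reverse strand) has 12 transcripts from 4 TSSs. The strongest of its 3 peaks, from 14962875 to 14963278, had its summit 108 bp upstream of the first TSS, that of aPKC-RA, aPKC-RC and aPKC-RD. It ranked 829, and 924, 789 and 778 in the replicates. The TSS of *ckn*, on the opposite strand, was 215 bp from the same summit. A further summit 1183 bp upstream, nearer to *ckn* (860 bp) and inside it, ranked 1443, and 938, 886 and 3836 in the replicates, so that replicate 3 placed it just within the 3866 highest. The last, in an intron 3533 bp downstream of the second TSS, ranked 2939. Its replicate ranks were 7349, 1972 and 4428, and replicate 2 alone had it among its 3866 highest peaks. Near the other 3 TSSs, from which 9 of the 12 transcripts start, replicate 3 had no region. The regions of replicates 1 and 2 there reached a −log10 q of at most 0.369. Of the genes in the longest length group, 10.7% had 3 or more summits.

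**Figure D3:**
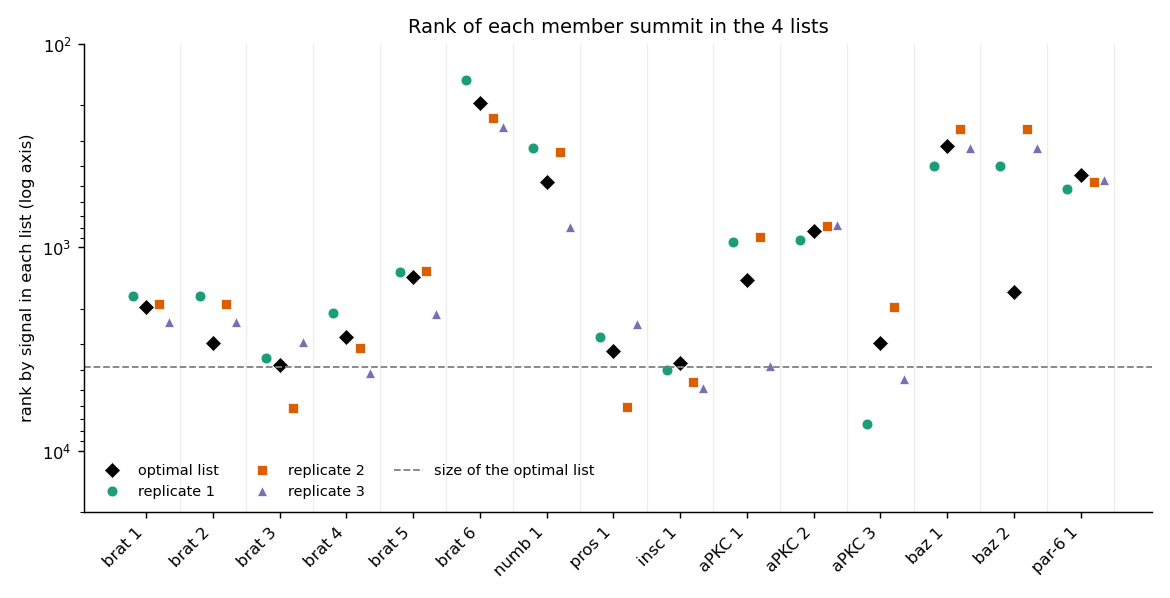
Rank by signal (log axis, strongest at the top) of each of the 15 summits in the optimal list and of the best overlapping peak in each replicate's list of 30000; the dashed line is at 3866, and summits are numbered along the gene. The sixth *brat* summit leads with ranks from 151 to 257, the *insc* summit lies below the line in every replicate, and *brat* 1 and 2, like *baz* 1 and 2, share their replicate peaks.

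*insc*, which encodes the adaptor between Bazooka and the Pins complex, shows what the limits of the search decide (FBgn0011674; 2R, 20821262 to 20836028, reverse strand, 1 TSS). The counted peak, from 20830847 to 20831250, lay 4979 bp downstream of the TSS in an intron. It was closer to the TSS of *sktl*, a lipid kinase gene that overlaps it, at 1369 bp. It ranked 3724, and 4005, 4574 and 4926 in the replicates, outside the 3866 highest in each. A stronger peak was left out because its summit was 2007 bp upstream of the *insc* TSS, just beyond the flank of 2 kb. In replicate 1 its summit was placed inside the flank. That peak, from 20837833 to 20838236, ranked 2434, and 2647, 2826 and 2132 in the replicates, and the TSS of *insc* was the nearest of any protein-coding gene. At *brat* a summit 2045 bp beyond the 3′ end was left out in the same way, 101 bp from the TSS of *CG17568*. A little farther out, a summit of rank 2425 lay 2158 bp upstream of *aPKC*, 557 bp from the TSS of *ckn*. Another, of rank 1783, lay 2307 bp beyond the 3′ end of *pros*, 59 bp from the TSS of *mgr*. It ranked above the counted *pros* peak (3235). On the inner side of the limit stood the *brat* summit 1825 bp upstream. For the 1 kb limit, the values next to it were 698 bp for *brat* and 1183 bp for *aPKC*.

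*l(2)gl* encodes the cortical protein that opposes the kinase, and it had no peak (FBgn0002121; 2L, 9839 to 21376, reverse strand, 2 TSSs 2806 bp apart). The gene lies at the tip of the arm, and no optimal summit lay between it and the arm's start. The nearest summit, the first of the 712 on the arm, was 80999 bp away, 5 bp from the TSS of *Creld*, and ranked 3851. In the gene and its flanks the best regions ranked 16542 in the joint list and 8395, 10024 and 17439 in the replicates, with −log10 q of 0.730, 0.550 and 0.220. No list had any region within 1 kb of either TSS.

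Other genes, listed as neuroblast genes and not all of them part of asymmetric division, were counted from 5 lists of 39 genes in all. Of the 12 spindle and cortical partners, 8 had a summit within 1 kb of a TSS. The share over all protein-coding genes, for this list and those below, was 22.2%. The highest of the 8 were *dlg1* (rank 1476), *pins* (1635), *Ggamma1* (1964) and *cno* (2232). *dlg1* encodes a cortical scaffold, *pins* the partner of Inscuteable that helps to orient the spindle, and *Ggamma1* a G protein subunit. *cno*, *Gbeta13F*, *scrib* and *loco* had stronger summits elsewhere in the gene or its flanks, with ranks 150, 82, 742 and 1853. *Ggamma1* had a slightly stronger summit there too, with rank 1944. *mud*, *ric8a*, *Khc-73* and *Cdc42* had no summit. Among 6 mitotic kinase and phosphatase genes 4 had one near a TSS, *mts* (1296), *aurA* (1657), *polo* (2333) and *tws* (2503), and *flfl* had one elsewhere in the gene or its flanks. Of 6 genes for RNA-binding partners and myosins 4 had one near a TSS, *jar* (460), *pum* (1721), *nanos* (2645) and *stau* (3792). Of 7 Notch pathway genes 2 did, *AP-2alpha* (573) and *neur* (2725). *neur*, *N* and *Nak* had summits elsewhere in the gene or its flanks, the strongest with ranks 563, 483 and 2585.

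Of the 5 lists, the 8 neuroblast transcription factor genes had the lowest counts. None of *ase*, *dpn*, *wor*, *sna*, *esg*, *klu*, *grh* and *cas* had a summit within 1 kb of a TSS, and only *grh* had one in the gene body with its flanks, at rank 737. The median length of these 8 genes was 2895 bp, against 16639 bp for the 10 asymmetric division genes and 2166 bp for all protein-coding genes. Over the 5 lists together, 18 of 39 genes (46.2%) had a summit near a TSS, against 22.2% of all protein-coding genes. In the gene body with its flanks 22 (56.4%) had one, against 33.7%. The median length of the 39 genes was 7295 bp, and their counts were not set beside genes of like length or TSS number. When the peak near the TSS had to be matched in all 3 replicates, 11 of the 39 remained, against 15.1% of all protein-coding genes. They were 4 spindle and cortical partners, 4 kinase and phosphatase genes, 2 of the RNA-binding partners and myosins and 1 Notch pathway gene. Differences between lists were not tested.

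**Figure D4:**
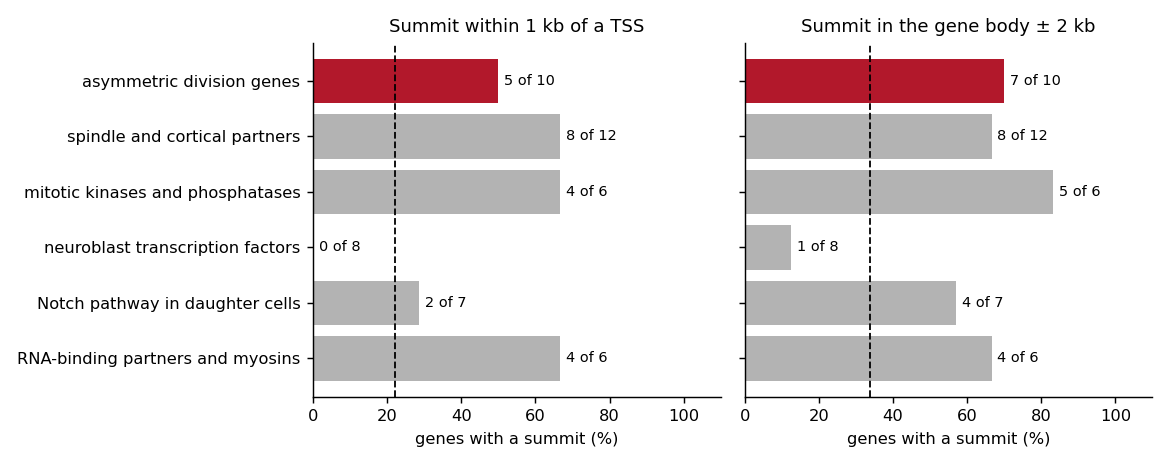
Percentage of genes with an optimal summit within 1 kb of a TSS (left) and in the gene body with 2 kb to each side (right) for the 10 asymmetric division genes (red) and the 5 other lists (grey), with counts beside the bars; dashed lines mark all protein-coding genes, at 22.2% and 33.7%. The neuroblast transcription factor genes have 0 of 8 and 1 of 8.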

How the data were processed

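The deposited narrowPeak lists on dm6 were used: an optimal list, a joint list and 1 list per replicate. Notes deposited by the submitters say that a replicate's list was made from its own alignments with a control, the joint list from all 3 sets of alignments, and the optimal list from these lists. Aligner and peak caller were not given in the sources used here. The deposited signal column, on an unstated scale, was used only for ranks within a list (1 is highest), and the deposited −log10 q column as given. The summit offset column, deposited in bp from the interval's start, gave summits, printed 1-based.

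Genes and TSSs came from the Ensembl annotation (release 115) of Release 6, the assembly of dm6, and sequence from the RefSeq copy of that assembly. Starts and ends of the 10 genes were the same in RefSeq. Of several overlapping replicate peaks, that of highest signal was taken. The gene *nos* was matched as *nanos* through RefSeq synonyms. Counting was tested on planted summits. Calculations used Python 3.11.15, pandas 2.3.3 and numpy 2.4.6.

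The genes, lists and motifs were chosen with earlier results of these data known. The named genes are the 10 genes, up to 4 genes per further list with the highest peak near a TSS, and genes whose TSS lies within 1 kb of their summits. Further list genes, genes without a summit and nearest genes were named after their values were seen. Replicates share 1 group, so no comparison between groups and no significance test was made. The dm3 lists were not used.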

Additional observations from a re-analysis of the deposited data

How the results depend on the processing

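Counts of summits moved more with the processing than counts of genes. Over all settings, from 3 to 6 genes had a summit near a TSS. In the gene body or its flanks, from 5 to 7 genes had one. Summits counted there ranged from 8 to 20, the highest with flanks of 5 kb, and matched summits from 6 to 15. With only the TSS farthest 5′ of each gene, 3 genes (*aPKC*, *par-6* and *brat*) had a summit within 1 kb instead of 5. The share of all genes under that rule was 20.5%. Without flanks, gene bodies held 9 summits instead of 15, at 6 genes, against 11.0% of all genes. With flanks, the part of the optimal list above its midpoint by signal held 8, at 5 genes, against 20.2% of all genes. When matching required a reciprocal overlap of 50%, 6 summits were matched in all 3 replicates instead of 10. Each replicate was also left out in turn, with a match required in both others. From 4 to 5 genes then had a summit near a TSS, against 16.2% to 17.8% of all genes. In the gene body with its flanks, from 5 to 6 genes had one, against 25.6% to 27.7% of all genes. From 10 to 12 summits were counted there, and from 10 to 12 were matched. Without a required match the shares of all genes were 22.2% and 33.7%. *pros* was lost without replicate 1 and without replicate 3, and *insc* without any one of the 3. With a TSS window of 5 kb, 6 genes had a summit, against 40.6% of all genes. When the nearest protein-coding TSS had to be the gene's own, 4 did, without *par-6*, against 16.0%. With matches taken from the whole replicate lists, background entries included, 15 summits were matched in place of 10. Depth is unknown, so a missing peak at *mira*, *pon* or *l(2)gl* does not show that binding is absent there.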
